A study of Mus musculus with 12 samples.

Results

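The 10 genes described here, Pdgfra, Cspg4, Ptprz1, Gpr17, Lhfpl3, C1ql1, Cacng4, Vcan, Tnr and Neu4, are surface, matrix and progenitor markers of oligodendrocyte precursor cells (OPCs). They were chosen by symbol out of 55536 annotated genes. No measured value was a criterion, but earlier results of these data were known, so the choice was not blind to them. All 10 were among the 18995 genes that passed the filter on low counts. Bulk RNA-seq was performed on 12 libraries of primary mouse OPCs, 3 in each of 4 groups. Ctr cells received neither agent. EZH2i cells received EPZ011989, an inhibitor of the histone methyltransferase EZH2, at 1.5 µM for 4 days with renewal every 48 h. IFN-γ cells received 100 ng/ml of the cytokine for 6 h, and IFN-γ+EZH2i cells received the inhibitor for 4 days and then the cytokine with fresh inhibitor for 6 h. All groups were brain cells of P4-P6 pups, with several brains pooled per culture and a different litter for each replicate, and all were grown in a proliferation medium that contains PDGFaa, the ligand of the receptor that Pdgfra encodes, and bFGF. The labels call the cells Sox10GFP+ OPCs. In the mouse line of the study GFP marks cells that carry, or descend from cells that carried, Cre driven by Sox10, a gene of the whole oligodendrocyte lineage and not of OPCs alone. The protocol names 2 ways to obtain OPCs, sorting for GFP under Sox10 or magnetic beads against CD140a, which is the protein of Pdgfra itself. The labels also carry the tag EAE for the mouse model, although the protocol describes cultured cells from pups.

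OPCs divide and persist in the brain, and under permissive conditions leave the cycle and differentiate into myelinating oligodendrocytes. Signaling through the PDGF receptor alpha keeps them proliferating, and the surface proteoglycan NG2, encoded by Cspg4, is the classic antigen by which they are recognized. A coat of chondroitin sulfate proteoglycans and tenascins surrounds them, and Gpr17 marks a transient stage between the progenitor and the new oligodendrocyte. IFN-γ is a cytokine released by activated lymphocytes, and EZH2 is the catalytic subunit of the Polycomb repressive complex PRC2, which places H3K27me3.

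The libraries held between 17403896 and 66546017 estimated counts, which left the least abundant of the 10 genes, C1ql1, with at least 405 counts in every library. Summed TPM (a level per transcript length) was between 608 and 1317 for the 10 genes, between 338 and 894 for 12 mature oligodendrocyte markers, between 306 and 920 for 10 astrocyte markers, and between 1.2 and 2.68 for 10 microglia and macrophage markers, of which C1qa had no count in any library. The sum of 10 neuron markers was between 18.4 and 23.2 TPM in Ctr, 30.9 and 50.1 in EZH2i, 298 and 563 in IFN-γ and 365 and 717 in IFN-γ+EZH2i. Of these 10 markers 3 rose with IFN-γ, averaged over both EZH2i levels (Tubb3, Syt1 and Stmn2), and 3 rose with EZH2i, averaged over both IFN-γ levels (Snap25, Syt1 and Stmn2). In these 2 averaged comparisons 10% of all genes tested rose with IFN-γ, and 386 of 18995 rose with EZH2i. Tubb3, a neuronal beta-tubulin, held most of the sum with IFN-γ, at group means of 10.4 TPM in Ctr, 15.5 in EZH2i, 417 in IFN-γ and 498 in IFN-γ+EZH2i. In the same order of groups, Snap25 was at 4.96, 14.8, 5.22 and 10.6 TPM, Syt1 at 0.267, 0.534, 1.05 and 1.95 TPM and Stmn2 at 0.0923, 0.35, 0.35 and 1.93 TPM. Of 12 pericyte and vascular leptomeningeal markers 8 were tested and 3 rose with IFN-γ (Kcnj8, Lum and Igf2), beside the same 10% of all genes. Their sums were at most 7.6 TPM without IFN-γ and 12.3 TPM with it. In bulk libraries, fewer cells of a type and less RNA per cell cannot be told apart, and the part of these markers in the results below was not tested.

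RefSeq promoters on GRCm38.p6 were used for 7 of the 10 genes. The 4 below are shown because they belong to 3 genes that fell with IFN-γ (Pdgfra, Cspg4 and Neu4) and to 1 whose level did not pass the test (Ptprz1). Each is the stretch ending just before the first annotated transcript start, 5′ to 3′ on the strand of the gene, and capitals mark CG dinucleotides.
Pdgfra (chr5:75152001-75152250, + strand): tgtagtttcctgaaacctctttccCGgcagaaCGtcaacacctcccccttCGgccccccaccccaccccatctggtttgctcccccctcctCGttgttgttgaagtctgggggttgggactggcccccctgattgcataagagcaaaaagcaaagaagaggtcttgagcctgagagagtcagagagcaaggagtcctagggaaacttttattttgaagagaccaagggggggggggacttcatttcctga
Cspg4 (chr9:56864854-56865032, + strand): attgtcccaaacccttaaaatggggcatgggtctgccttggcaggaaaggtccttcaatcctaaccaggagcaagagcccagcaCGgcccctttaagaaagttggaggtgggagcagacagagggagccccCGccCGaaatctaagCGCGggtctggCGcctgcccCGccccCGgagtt
Neu4 (chr1:94020243-94020450, + strand): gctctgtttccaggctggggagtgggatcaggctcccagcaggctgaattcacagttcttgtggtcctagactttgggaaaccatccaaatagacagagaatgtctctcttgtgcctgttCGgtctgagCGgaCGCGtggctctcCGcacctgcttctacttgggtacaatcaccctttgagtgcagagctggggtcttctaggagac
Ptprz1 (chr6:22875252-22875501, + strand): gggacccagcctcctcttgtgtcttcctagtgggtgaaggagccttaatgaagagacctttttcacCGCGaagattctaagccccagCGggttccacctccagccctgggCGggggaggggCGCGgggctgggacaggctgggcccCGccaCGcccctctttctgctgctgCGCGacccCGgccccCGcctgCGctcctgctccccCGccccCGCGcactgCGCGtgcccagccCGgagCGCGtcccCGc
CG dinucleotides numbered 4 in the printed Pdgfra stretch of 250 bases, 8 in that of Cspg4 (179 bases), 5 in that of Neu4 (208 bases) and 22 in that of Ptprz1 (250 bases). Over the full windows of 300 bases (250 before to 50 after the start) the counts were 5, 17, 6 and 29, and 3 for Tnr and 12 for each of Lhfpl3 and Vcan, against a median of 7 over 32851 promoters with an interquartile range of 3 to 20. Among the genes counted, those that fell and those that did not pass the test both had windows with few and with many CG dinucleotides. Cacng4 and Gpr17, which both fell on average, and C1ql1, which did not pass the test, were not counted.

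The 10 genes differed widely in level. Per transcript length, and averaged over the Ctr libraries, Ptprz1, a receptor-type tyrosine phosphatase that carries chondroitin sulfate, was listed at 224 TPM, Gpr17, a G protein-coupled receptor, at 206 TPM and Pdgfra at 199 TPM. These 3 leading genes overlapped between libraries and their order is not resolved. Lhfpl3, a tetraspan membrane protein of the LHFP family, was listed at 103 TPM, Tnr (tenascin-R) at 83.8 TPM, Cspg4 at 76.1 TPM, Vcan (versican) at 66.1 TPM and Cacng4, an auxiliary subunit of AMPA receptors, at 58.7 TPM. Neu4, a sialidase, and C1ql1, a secreted C1q-like protein, closed the order at 18.6 and 16.7 TPM and overlapped each other. With TPM compared across the Ctr libraries, only the step from Cacng4 down to Neu4, a ratio of 3.15, left no overlap between neighbors. Ranked within each Ctr library, Lhfpl3 held place 4 every time, below Ptprz1, Gpr17 and Pdgfra.

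TPM is scaled to a constant sum, of which protein-coding genes took between 24.2 and 39.8% in these libraries, so the genes are compared across groups as shares of their own summed TPM. Ptprz1 took 21.1% ± 2.22 (SD, n = 3) of the sum in Ctr, 19.7% ± 0.737 in EZH2i, 28.7% ± 2.0 in IFN-γ and 29.1% ± 1.49 in IFN-γ+EZH2i, and it stood first in all 6 libraries with IFN-γ. Lhfpl3 took 9.81% ± 1.05 in Ctr and 18.4% ± 1.90 in IFN-γ+EZH2i, where it was second in each library. Pdgfra passed from 18.2% ± 4.21 in Ctr to 11.9% ± 1.62 in IFN-γ+EZH2i, and Gpr17 from 20.5% ± 5.78 to 11% ± 1.21. The shares are not independent of each other, since they sum to a whole, and they are given as a description.

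**Figure D1:**
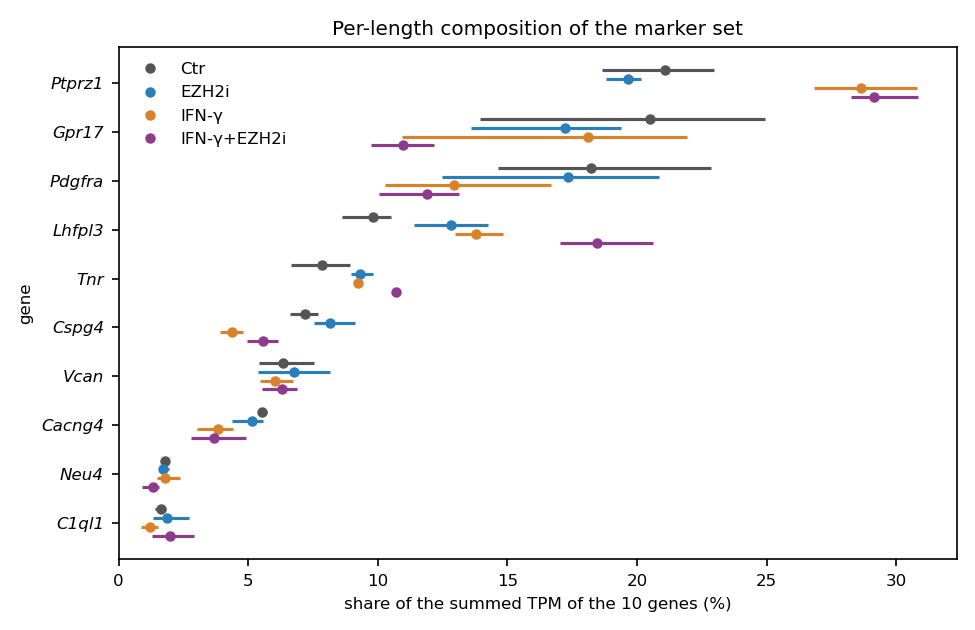
Share of each gene in the summed TPM of the 10 genes (x axis, percent) by group. Points are means of 3 libraries and lines run from the lowest to the highest library; Ptprz1 and Lhfpl3 lie further right in the IFN-γ groups, whereas Pdgfra, Cspg4 and Cacng4 lie further left.

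The effect of IFN-γ was assessed next, on CPM, the count of a gene relative to the TMM-scaled library size, which compares 1 gene between libraries. Averaged over both EZH2i levels, 6 of the 10 genes fell with IFN-γ and none rose (adjusted p under 0.05 in edgeR's quasi-likelihood test over all genes), where 6.03% of all genes tested fell and 16.1% were called in either direction. The 6 were Pdgfra, Cspg4, Cacng4, Neu4, Gpr17 and Vcan, and the median log2 fold change of the 10 was -0.73, against 0.00 for all genes. Without EZH2i the comparison of IFN-γ with Ctr called 4 of the 10, all lower (background 8.75%, lower 2.1%), and with EZH2i the comparison of IFN-γ+EZH2i with EZH2i called 5, all lower (background 8.07%, lower 2.17%). Libraries did not overlap between the groups, with IFN-γ lower, for 5 genes against Ctr (Pdgfra, Cspg4, C1ql1, Cacng4 and Neu4; background 9.52%), for 5 against EZH2i (Pdgfra, Cspg4, Gpr17, Cacng4 and Neu4; background 9.66%) and for 4 when all 6 libraries with IFN-γ were set against all 6 without it (background 3.22%). The averaged comparison uses the libraries of both single comparisons and is not independent of them.

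**Figure D2:**
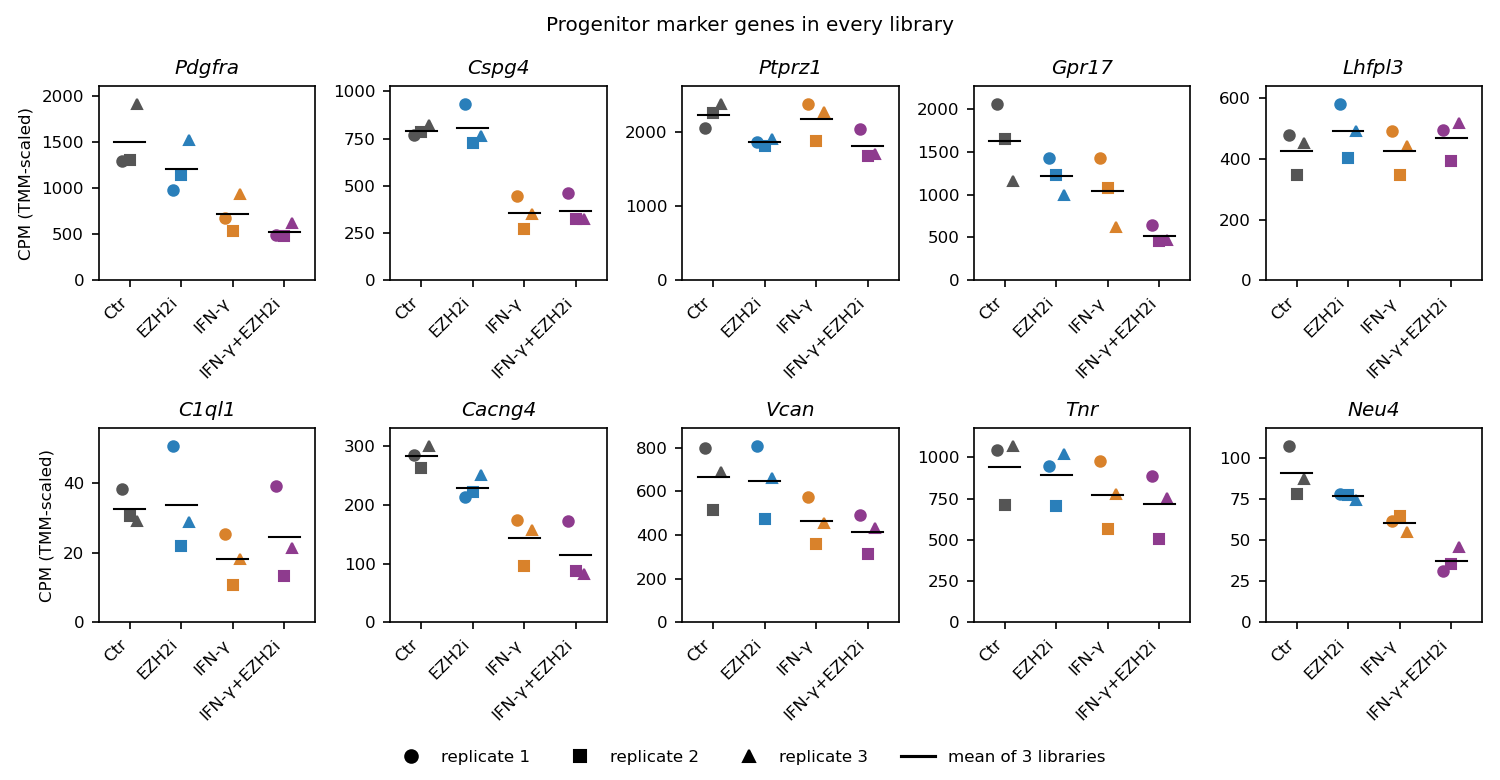
TMM-scaled CPM (y axis, from 0) of each gene in each of the 12 libraries by group, with symbols for the replicate number and a line at the mean of 3 libraries. For Pdgfra, Cspg4, Cacng4 and Neu4 every library with IFN-γ lies below every library without it.

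Of the receptors and antigens, Pdgfra (chromosome 5, 75152292 to 75198215 on GRCm38) stood at 1294, 1305 and 1917 CPM in Ctr replicates 1, 2 and 3 and at 677, 536 and 934 CPM in IFN-γ. With the inhibitor it stood at 975, 1144 and 1519 CPM in EZH2i and at 491, 480.3 and 616 CPM in IFN-γ+EZH2i. All 6 libraries with IFN-γ were below all 6 without it. The log2 fold change was -1.07 ± 0.24 (SE) against Ctr (adjusted p = 0.0141), -1.20 ± 0.24 against EZH2i (adjusted p = 0.00755) and -1.13 ± 0.17 on average (adjusted p = 0.000508, edgeR). The call against Ctr was lost without Ctr replicate 3, IFN-γ replicate 1 or IFN-γ replicate 2 (adjusted p = 0.0658, 0.0539 and 0.0700, edgeR), and the averaged call was kept without each library.

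Cspg4 (chromosome 9, 56865033 to 56899870 on GRCm38) gave 769, 783 and 824 CPM in Ctr and 449, 269 and 349 CPM in IFN-γ. The values were 935, 725 and 762 CPM in EZH2i and 460.2, 324 and 323 CPM in IFN-γ+EZH2i, so that the groups with and without IFN-γ did not overlap. The log2 fold changes were -1.16 ± 0.20 against Ctr (adjusted p = 0.00245), -1.13 ± 0.20 against EZH2i (adjusted p = 0.0029) and -1.14 ± 0.14 on average (adjusted p = 9.65e-05, edgeR). This was the gene with the smallest averaged p of the 10, and none of its 3 calls was lost under any alternative or without any library.

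Gpr17 varied more between replicates. It was at 2061, 1643 and 1158 CPM in Ctr, at 1422, 1079 and 619 CPM in IFN-γ, at 1431, 1232 and 991 CPM in EZH2i and at 643, 454 and 467 CPM in IFN-γ+EZH2i. In IFN-γ the range overlapped that of Ctr, and the log2 fold change of -0.64 ± 0.29 did not pass the test (adjusted p = 0.263, edgeR), whereas all IFN-γ+EZH2i libraries lay below all EZH2i libraries (-1.22 ± 0.30, adjusted p = 0.0234). The averaged change was -0.93 ± 0.21 (adjusted p = 0.00816). The difference between the 2 effects of IFN-γ was -0.58 with a 95% interval from -1.49 to 0.32, and it did not pass the test (adjusted p = 1, edgeR). The call against EZH2i was lost without EZH2i replicate 1 or 2 or IFN-γ+EZH2i replicate 2 or 3 (adjusted p between 0.0664 and 0.103).

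Cacng4 (chromosome 11, 107732357 to 107794557 on GRCm38) was at 285, 264 and 301 CPM in Ctr and at 174, 96.6 and 158 CPM in IFN-γ. It was at 213, 222 and 252 CPM in EZH2i and at 172, 88.0 and 82.9 CPM in IFN-γ+EZH2i, again without overlap between libraries with and without the cytokine. The log2 fold change was -0.99 ± 0.27 against Ctr (adjusted p = 0.0422), -1.0 ± 0.27 against EZH2i (adjusted p = 0.0412) and -1.0 ± 0.19 on average (adjusted p = 0.00316, edgeR). Both single comparisons were near the threshold: the first lost its call without any of the Ctr or EZH2i libraries or IFN-γ replicate 2 or 3 (adjusted p between 0.0564 and 0.165), and the second without any of the Ctr or EZH2i libraries, IFN-γ replicate 3 or IFN-γ+EZH2i replicate 2 or 3 (adjusted p between 0.0525 and 0.178) and with only the 6 libraries compared (adjusted p = 0.0764). The averaged call was kept without each library.

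Neu4 (chromosome 1, 94020451 to 94028334 on GRCm38), which removes sialic acid from glycoconjugates, was at 107, 78.0 and 87.3 CPM in Ctr, at 77.7, 77.5 and 74.6 CPM in EZH2i, at 61.8, 64.6 and 54.8 CPM in IFN-γ and at 31.3, 35.3 and 45.9 CPM in IFN-γ+EZH2i. The 4 groups followed each other in this order without overlap, but the lowest Ctr and the highest EZH2i library were close, at 78.0 and 77.7 CPM. The step from Ctr to EZH2i did not pass the test (-0.25 ± 0.16, adjusted p = 0.894, edgeR). Without a block, neither did that from IFN-γ to IFN-γ+EZH2i (-0.69 ± 0.16, adjusted p = 0.131). The log2 fold change with IFN-γ was -0.59 ± 0.16 against Ctr (adjusted p = 0.0354), -1.03 ± 0.16 against EZH2i (adjusted p = 0.00103) and -0.81 ± 0.11 on average (adjusted p = 0.000251, edgeR). The call against Ctr was lost with length-scaled TPM (adjusted p = 0.165), with only the 6 libraries compared (adjusted p = 0.0588), and without Ctr replicate 1 or 3, EZH2i replicate 2 or 3, any IFN-γ library or IFN-γ+EZH2i replicate 2 (adjusted p between 0.0522 and 0.136). The other 2 calls were kept in every alternative.

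Among the matrix genes, Vcan (chromosome 13, 89655312 to 89742509 on GRCm38), a large secreted chondroitin sulfate proteoglycan, was at 798, 515 and 687 CPM in Ctr, at 572, 357 and 457 CPM in IFN-γ, at 809, 473 and 661 CPM in EZH2i and at 491, 311 and 432 CPM in IFN-γ+EZH2i. Its groups overlapped, since replicate 2 was the lowest in each of them. The averaged change was -0.59 ± 0.18 (adjusted p = 0.0388, edgeR), and neither single comparison passed the test (adjusted p = 0.278 against Ctr and 0.168 against EZH2i). Taken by replicate number, the ratio of IFN-γ to Ctr was 0.717, 0.693 and 0.664, and that of IFN-γ+EZH2i to EZH2i was 0.607, 0.658 and 0.653. The averaged call was lost without Ctr replicate 1 or 3, EZH2i replicate 1 or 3, or replicate 2 or 3 of either group with IFN-γ (adjusted p between 0.0640 and 0.0974). For IFN-γ+EZH2i against EZH2i, libraries of the same number were treated as pairs. There the fit with the number as a block called Vcan (adjusted p = 4.19e-05) and Tnr (adjusted p = 0.0304) lower, with 19.3% of all genes called and 8.3% called lower. A blocked fit of only these 6 libraries called Vcan (0.00146) and C1ql1 (0.0139) lower but not Tnr (adjusted p = 0.0616), with 18.5% of all genes called and 7.88% called lower.

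The remaining 4 genes did not pass the averaged test in the fit without a block. With the replicate block 32.6% of all genes were called in this comparison, and not all of these 4 remained without a call. The values below are from the fit without it, since Ctr was not treated as paired. Tnr (chromosome 1, 159523769 to 159931729 on GRCm38), an extracellular matrix glycoprotein of the central nervous system, ranged from 505 to 1071 CPM over the 12 libraries (-0.30 ± 0.18 on the log2 scale, adjusted p = 0.335, edgeR). C1ql1 (chromosome 11, 102939264 to 102946688 on GRCm38) ranged from 10.8 to 50.8 CPM, and its interval was the widest of the 10 (-0.65, 95% interval from -1.29 to -0.02, adjusted p = 0.173). It passed the test without IFN-γ+EZH2i replicate 1 (adjusted p = 0.0392, -0.92). Ptprz1 (chromosome 6, 22875502 to 23052916 on GRCm38) was at 2047, 2247 and 2372 CPM in Ctr and at 2378, 1872 and 2264 CPM in IFN-γ, and Lhfpl3 (chromosome 5, 22746059 to 23275597 on GRCm38) at 478, 348 and 453 CPM in Ctr and at 492, 347 and 444 CPM in IFN-γ. Their averaged changes were -0.04 (95% interval from -0.25 to 0.17) and -0.03 (from -0.32 to 0.25), with the sign of both depending on single libraries. The lower ends of both intervals lie above the values measured for Pdgfra, Cspg4 and Cacng4.

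**Figure D3:**
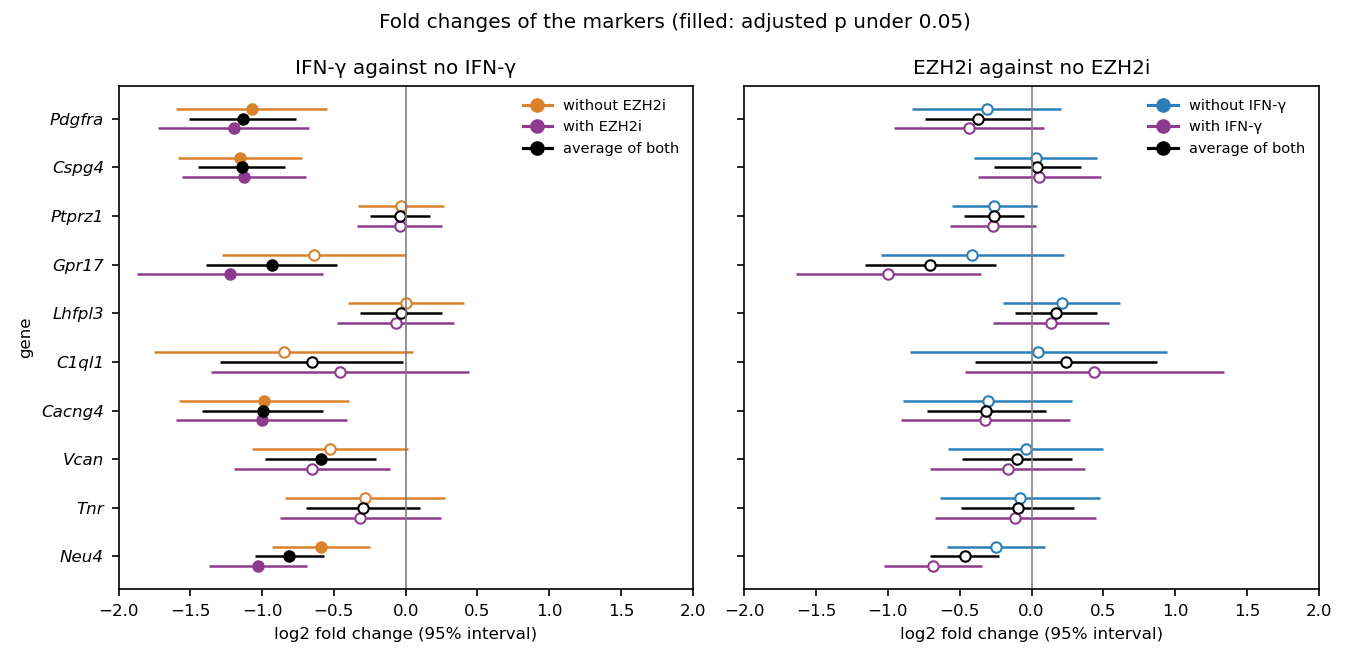
Fitted log2 fold changes with 95% intervals (x axis) for IFN-γ (left) and EZH2i (right), each without the other agent, with it, and averaged. Filled points have an adjusted p under 0.05; the filled points are all on the lower side of the IFN-γ panel, at between -0.59 and -1.22, and the EZH2i panel holds none.

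For EZH2i, none of the 10 genes was called without IFN-γ (background 0.405%), with IFN-γ (background 0.353%) or on average (background 2.22%) by edgeR without a block. At an unadjusted p under 0.05 the counts were 0, 2 and 4 of 10 (background 7.04%, 6.42% and 12.3%), and DESeq2 called 0, 1 and 2, with 1.74%, 1.48% and 4.61% of all genes called. EZH2i libraries lay below all Ctr libraries for Ptprz1, Cacng4 and Neu4 (background 5.34%), and IFN-γ+EZH2i libraries lay below all IFN-γ libraries for Neu4 (background 4.26%). The averaged log2 fold changes ran from -0.70 for Gpr17 to 0.24 for C1ql1. Neu4 was nearest to the threshold (-0.47 ± 0.11, adjusted p = 0.0533), followed by Gpr17 (-0.70 ± 0.21, adjusted p = 0.132), Ptprz1 (-0.26 ± 0.10, adjusted p = 0.256) and Pdgfra (-0.37 ± 0.17, adjusted p = 0.394, edgeR). Averaged values for the others were -0.31 for Cacng4 (95% interval from -0.73 to 0.10), -0.10 for Vcan (-0.49 to 0.28), -0.10 for Tnr (-0.49 to 0.30), 0.04 for Cspg4 (-0.26 to 0.34), 0.17 for Lhfpl3 (-0.11 to 0.46) and 0.24 for C1ql1 (-0.39 to 0.88).

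Libraries of the same number in IFN-γ and IFN-γ+EZH2i were treated as pairs because their deviations correlated, and here the block changed the calls. With the block in the fit of all 12 libraries, Gpr17 (-0.94, adjusted p = 0.00295) and Neu4 (-0.69, adjusted p = 0.0216) were called lower with EZH2i in the presence of IFN-γ, with 3.94% of all genes called and 0.827% called lower, and a blocked fit of only these 6 libraries also called Pdgfra (-0.42, adjusted p = 0.0265, with 9.55% of genes called and 4.35% called lower). Without the block the adjusted p for these genes was 0.319, 0.131 and 0.876. In pairs of the same number, the ratio of IFN-γ+EZH2i to IFN-γ was 0.452, 0.421 and 0.754 for Gpr17, 0.507, 0.546 and 0.838 for Neu4 and 0.725, 0.896 and 0.660 for Pdgfra. All 3 pairs pointed down for each of these genes, but also for Ptprz1, Cacng4, Vcan and Tnr, which neither fit called. For Lhfpl3 and C1ql1 all 3 pointed up, and Cspg4 was mixed. The share of all genes with 3 pairs in 1 direction was not taken. By number alone, the ratios of EZH2i to Ctr were 0.694, 0.750 and 0.855 for Gpr17, 0.724, 0.993 and 0.855 for Neu4 and 0.754, 0.877 and 0.792 for Pdgfra, and with the block none of the 10 was called there. For Neu4 the interaction of both agents was -0.44 with a 95% interval from -0.92 to 0.04 (unadjusted p = 0.0702). No gene of the 18995 passed the interaction test in edgeR or DESeq2, with 127 (0.669%) and 135 genes at an unadjusted p under 0.05.

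Replicates of the same number moved together in part of the set. Pdgfra was highest in replicate 3 of every group, whereas Gpr17 was highest in replicate 1 of every group. Over the 12 deviations from the group means, which share libraries within a number, Pearson's r was -0.77 between Pdgfra and Gpr17. It was 0.97 between Lhfpl3 and Vcan, 0.93 between Vcan and Tnr and 0.90 between Lhfpl3 and Tnr. For these 3 genes replicate 2 was the lowest library in all 4 groups. Library depth also went with the number, since replicate 3 was the deepest of each group, and its part in these values was not tested.

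The transcripts behind each gene were then compared. C1ql1 and Gpr17 had 1 annotated transcript each, and Cacng4-201 held 96.8% of its gene's TPM. In the other 7 genes at least 2 transcripts each held 10% or more. Ptprz1 was divided between Ptprz1-201 (41.8%), with 30 exons, and Ptprz1-206 (41.6%), with 12 exons, which ends at position 23004678 of chromosome 6, before the exons near the end of the gene at 23052916. Ptprz1 is known to make a secreted form, phosphacan, as well as receptor forms. Ptprz1-204, also with 30 exons but with 4947 bases in place of 8068, held 9.27%.

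Vcan-202 held 67.1% of the TPM of Vcan and includes an exon of 2880 bases but not the exon of 5217 bases, and Vcan-203, which includes both, held 23.0%. Vcan-206, with the exon of 5217 bases alone of these, held 0.743%. These are the 2 alternative exons to which chondroitin sulfate chains are attached, and the form with the shorter of them is known as the brain form V2. Lhfpl3-202 (60.2%) and Lhfpl3-201 (39.8%) start at different positions, 22746059 and 23100552 of chromosome 5. Cspg4-201 is the protein-coding transcript and held 74.1%, and the other 3 are annotated as retained introns. Neu4-201 held 57.4% and Neu4-202 42.6%, Pdgfra-201 held 66.5%, and Tnr-202 held 50% of its gene.

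The share of the leading transcript was compared in 7 genes and for both agents, 14 tests in all, by an exact two-sided permutation test with labels exchanged within the levels of the other agent. None passed after adjustment. For 1 gene alone the smallest p of this design, 0.005, would give 0.07 after adjustment over 14 tests. The smallest p was that of Pdgfra-201 with IFN-γ, at 63.4% of the gene's TPM with the cytokine and 69.6% without it (difference -6.17 percentage points, exact permutation p = 0.0300, adjusted p = 0.420). Pdgfra-201 was at 71.5% ± 2.06 (SD, n = 3) in Ctr, 67.6% ± 5.72 in EZH2i, 64.2% ± 4.11 in IFN-γ and 62.6% ± 4.32 in IFN-γ+EZH2i. In estimated counts, which do not weigh short transcripts up, the difference was -2.61 percentage points (exact permutation p = 0.0800).

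**Figure D4:**
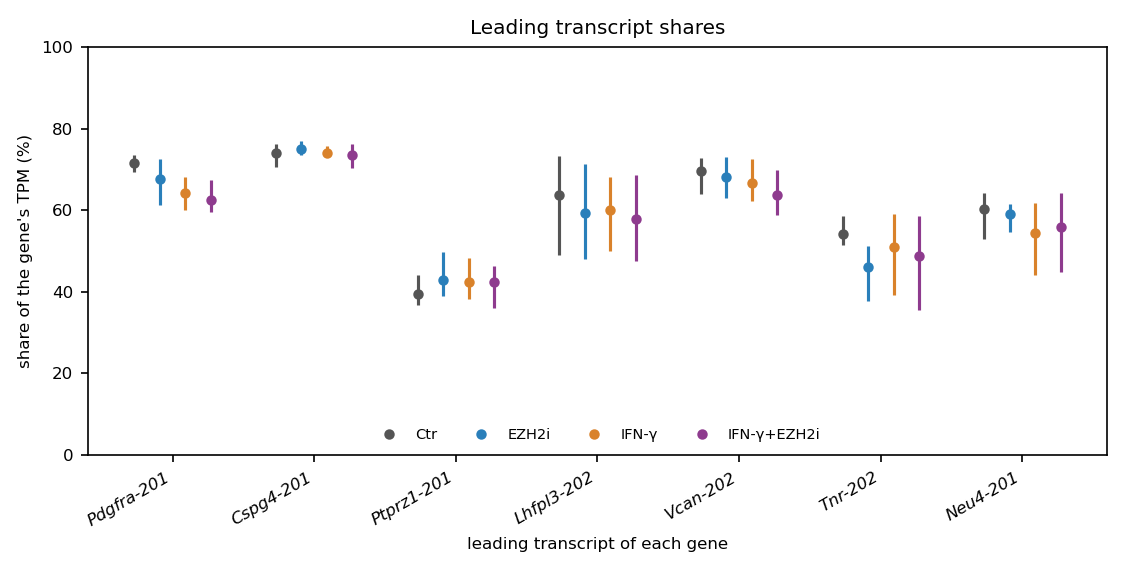
Share of the leading transcript in the TPM of its gene (y axis, percent, from 0 to 100) for 7 genes by group. Points are means of 3 libraries and lines run from the lowest to the highest library; Lhfpl3-202 has the widest spread, with group means of between 57.9 and 63.8%.

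The genes around the set were followed in fixed lists. Of 30 other OPC-enriched genes, 7 fell and none rose with IFN-γ on average, with a median log2 fold change of -0.26, where 6.03% of all genes fell and 10% rose. The 7 were Xylt1, Rlbp1, Sox6, Sox8, Sox5, Snx22 and Olig1. Sox6, a transcription factor of progenitors, fell from 426 to 271 CPM (-0.66 ± 0.09, adjusted p = 0.000291, edgeR) and Sox8 from 291 to 137 CPM (-1.09 ± 0.19, adjusted p = 0.00156). The retinaldehyde-binding protein gene Rlbp1 fell with IFN-γ (-1.14 ± 0.11, adjusted p = 8.75e-06) and rose with EZH2i (0.65 ± 0.11, adjusted p = 0.00751). With EZH2i on average, 2 of the 30 rose and none fell, where 2.22% of all genes were called.

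Of 31 genes of the proteoglycan and tenascin matrix, 4 fell and 3 rose with IFN-γ on average (median -0.16), against 16.1% of all genes called in either direction. Xylt1, xylosyltransferase 1, which stands in the list of other OPC-enriched genes as well and adds the first sugar of the chondroitin sulfate chain to the protein core, fell from 297 to 83.2 CPM (-1.85 ± 0.15, adjusted p = 3.02e-06, edgeR). Csgalnact1, which begins the chondroitin repeat, fell from 25.6 to 8.51 CPM (-1.59 ± 0.11, adjusted p = 6.68e-07). The other 2 that fell were the link protein gene Hapln1 and the adhesion gene Cntn2. Has2, hyaluronan synthase 2, rose from 4.56 to 28.7 CPM (2.64 ± 0.15, adjusted p = 1.06e-07), and Nrcam (0.58 ± 0.08, adjusted p = 0.000191) and Tnc, tenascin-C, rose as well. Tnc and Tnr, 2 tenascins, thus had values of 0.85 and -0.30, of which only the first passed the test. With EZH2i on average 1 of the 31 rose and none fell, where 2.22% of all genes were called.

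In the PDGF receptor pathway 28 of 30 genes were tested, of which 6 fell and 1 rose with IFN-γ on average (median -0.13), against 6.03% and 10% of all genes. Etv4, a transcription factor induced by receptor tyrosine kinase signaling, fell from 74.6 to 38.7 CPM (-0.95 ± 0.13, adjusted p = 0.00028, edgeR), and Etv5, Spry4, Dusp6, Fgfr3 and Src were the others that fell. Fgfr3, a receptor for fibroblast growth factors, fell by 0.81 on the log2 scale (adjusted p = 0.000611) and Dusp6, a phosphatase of ERK, by 0.33 (adjusted p = 0.0125). Pdgfc, which encodes a ligand of the receptor, rose from 5.39 to 11.8 CPM (1.13 ± 0.13, adjusted p = 5.43e-05). None of the 28 was called for EZH2i on average.

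Among 11 tested genes of committed OPCs and new oligodendrocytes, 2 fell and 2 rose with IFN-γ, beside the same 6.03% and 10% of all genes: Bmp4 fell from 32.4 to 6.49 CPM (-2.41 ± 0.29, adjusted p = 9.12e-05, edgeR) and Itpr2 by 0.66 on the log2 scale, whereas Rras2 rose by 1.12 and Nkx6-2 by 1.56. None of 11 mature oligodendrocyte genes was called (median -0.14), nor any of 10 astrocyte genes. With EZH2i on average, Enpp6, a marker of new oligodendrocytes, fell from 119.9 to 61.2 CPM (-0.98 ± 0.14, adjusted p = 0.00405) and Mbp, a main myelin protein, from 754 to 394 CPM (-0.93 ± 0.18, adjusted p = 0.0225), the only calls in these 2 lists, and 10 of the 11 mature genes had values below 0. None of the 3 tested microglia and macrophage genes, 4 endothelial genes or 5 Schwann and neural crest genes was called for IFN-γ. For EZH2i on average, 3 of 10 neuron genes, 1 of 8 pericyte and leptomeningeal genes and 1 of 5 Schwann and neural crest genes rose. Over all genes, 386 of 18995 rose and 36 fell with EZH2i on average (2.22% called).

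**Figure D5:**
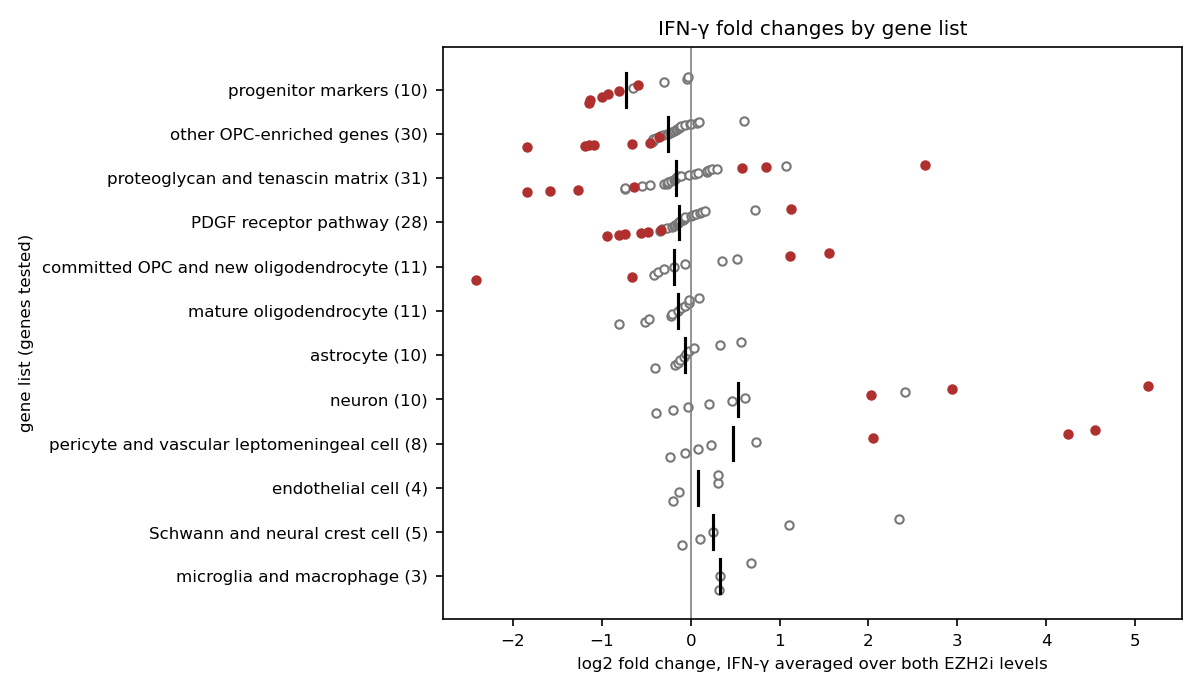
Log2 fold change with IFN-γ, averaged over both EZH2i levels (x axis), of each tested gene by list, with filled points for an adjusted p under 0.05 and a black bar at the median. The progenitor markers have their median at -0.73 and the other OPC-enriched genes at -0.26. The filled points of the neuron and the pericyte lists, 3 in each, all lie to the right.

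The genes most like each called member were searched among 11607 other genes with a mean of at least 5 CPM, by Pearson's r of log2(CPM + 0.5) over the 12 libraries, as a description. Pdgfra was most like Sox6 (r = 0.98), then Usp51 (0.98) and Rev3l (0.97). Cspg4 was most like Chrna4, Rasa3 and Mmp15 (each 0.98), and Cacng4 like Gab1, Sez6l and Prickle2 (each 0.97). Gpr17 was most like Snx30 (0.97), Map6d1 (0.96) and Slc22a23 (0.96). Neu4 was most like Prkcq (0.98), Swap70 (0.95) and Ugt8a (0.94), the last of these encoding the enzyme that makes the galactolipids of myelin, and Vcan like Lrrtm4 (0.98), Dscam (0.97) and Armh4 (0.97). All of these points share their libraries and their groups.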

How the data were processed

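RNA-seq libraries were made by the authors with a stranded total RNA kit after rRNA removal, and Salmon 0.8.2 was named in the submitters' processing notes, with GRCm38. The expected count per transcript, deposited by the authors, is Salmon's estimated number of fragments without scaling. The TPM values, also deposited, are these fragments per effective length, brought to the same total in every library. The effective length of each transcript was deposited in the same files. Further tables of the authors' own comparisons, which hold fold changes and p-values, were not used.

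Estimated counts were summed per gene over GENCODE M21 and rounded. All 141862 transcripts matched. Fits were made in R 4.3.3 with edgeR 4.0.16 (quasi-likelihood test, TMM, its default filter, all 12 libraries, group as the only term, Benjamini-Hochberg adjustment over 18995 genes). A gene was called at an adjusted p under 0.05. SE and 95% intervals come from the same fit. The steps were tested on simulated data.

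Same-number libraries were checked for shared deviations from the group means. The lowest correlation was 0.493 between IFN-γ and IFN-γ+EZH2i and 0.496 between EZH2i and IFN-γ+EZH2i, but 0.0467 between Ctr and EZH2i and 0.0854 between Ctr and IFN-γ, and only the first 2 comparisons were treated as paired.

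The 10 genes and the lists were chosen with earlier results of these data known. Up to 4 genes a list, those of smallest adjusted p among genes averaging 1 CPM or more, were to be named, and for each called gene the 3 most like it; further genes of lists with few calls (Sox5, Snx22, Olig1, Hapln1, Cntn2, Tnc, Etv5, Spry4, Src, Nkx6-2, Lum, Igf2 and C1qa) were named after their values were seen. Alternatives were DESeq2 1.42.0, RLE factors, other filters, a replicate block, length-scaled TPM, fewer genes or libraries, and each library left out. A blocked fit of only the 6 libraries compared was added after seeing the data. Counting precision follows the depth, and the differences between replicates exceeded counting error. A motif search in the promoters is not reported here.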

Additional observations from a re-analysis of the deposited data

How the results depend on the processing

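Of 15 called values of the 10 genes, none changed direction in 299 alternative fits, and 43 of these fits lost the call, 40 of them by leaving out a library. For IFN-γ versus Ctr the number of genes called was 4, and 7 with the replicate block, which called 21.2% of all genes. Leaving out 1 library gave between 1 and 4 genes there, between 3 and 5 for IFN-γ+EZH2i versus EZH2i (main count 5), between 0 and 1 for IFN-γ+EZH2i versus IFN-γ and between 0 and 1 for EZH2i averaged over both IFN-γ levels (main count 0 in both). The range was between 5 and 7 genes for IFN-γ averaged over both EZH2i levels (main count 6). For IFN-γ+EZH2i versus IFN-γ, DESeq2 called 1 gene, the replicate block 2 and the block with only the 6 libraries compared 3. For EZH2i averaged over both levels, DESeq2 called 2 (Gpr17, adjusted p = 0.0349, and Neu4, adjusted p = 0.0067) and the replicate block 4 (these and Pdgfra and Ptprz1), with 12.2% of all genes called. Without IFN-γ+EZH2i replicate 3, Neu4 was called for IFN-γ+EZH2i versus IFN-γ (adjusted p = 0.0479) and for EZH2i on average (adjusted p = 0.0176, edgeR), and without IFN-γ replicate 3 Gpr17 was called for EZH2i on average (adjusted p = 0.0391, edgeR). The cause was not tested.

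Over all genes, the replicate block raised the calls from 77 to 771 (EZH2i versus Ctr), from 67 to 748 (IFN-γ+EZH2i versus IFN-γ), from 422 to 2317 (EZH2i averaged), from 1663 to 4032 (IFN-γ versus Ctr), from 1533 to 3661 (IFN-γ+EZH2i versus EZH2i) and from 3053 to 6184 (IFN-γ averaged), and DESeq2 gave 331, 281 and 876 in the first 3. With at least 10 counts in every library these 3 were 29, 11 and 238, with length-scaled TPM 49, 31 and 280, and with only the 6 libraries compared the first 2 were 33 and 7. Without a filter the first was 121. The block with only the 6 libraries compared gave 1718 for IFN-γ+EZH2i versus IFN-γ and 3360 for IFN-γ+EZH2i versus EZH2i. Leaving out 1 library gave between 11 and 83 genes for EZH2i versus Ctr (lowest without Ctr replicate 3, and under 50 also without the other Ctr libraries, EZH2i replicate 1 or 2 or IFN-γ+EZH2i replicate 2), between 10 and 65 for IFN-γ+EZH2i versus IFN-γ (lowest without IFN-γ replicate 2, and under 50 without any library but EZH2i replicate 3 and IFN-γ+EZH2i replicate 3) and between 245 and 415 for EZH2i averaged (lowest without IFN-γ+EZH2i replicate 2, and under 280 without Ctr replicate 2, EZH2i replicate 1 or 2 or IFN-γ replicate 2).

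Between Ctr and the other groups, libraries of the same number correlated at 0.411 to 0.544 for replicates 1 and 3 and at 0.0134 to 0.0854 for replicate 2, and not every library correlated best with its own number. For IFN-γ versus Ctr the block added C1ql1, Gpr17 and Vcan to the calls. Gpr17 was then at -0.67 (adjusted p = 0.00444, edgeR), with ratios of 0.690, 0.656 and 0.534 by number.

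Values near 0 changed sign when libraries were left out: averaged over IFN-γ levels, EZH2i gave between -0.057 and 0.14 for Cspg4, between -0.015 and 0.40 for C1ql1 and between -0.19 and 0.0033 for Tnr, which was also 0.0080 with length-scaled TPM. Averaged over EZH2i levels, IFN-γ gave between -0.10 and 0.011 for Ptprz1 and between -0.11 and 0.036 for Lhfpl3. C1ql1, with 405 counts in its lowest library, had the widest interval of the 10 genes.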
